A study of Mus musculus with 12 samples.

Results

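Epididymal white adipose tissue (eWAT), the fat depot beside the testis and epididymis, was compared between day 7 and day 3 after 70% partial hepatectomy in mice. The libraries were chosen by their labels alone: 3 at day 7 and 5 at day 3, which are 8 of the 12 bulk RNA sequencing libraries of the study. All mice were labelled male, 12 to 14 weeks old, and of the strain written C57bl6 with the samples and C57BL6/J in the design text. The remaining 4 libraries came from mice that had a laparotomy and kept the whole liver. Their levels are given for orientation, and the labels do not say on which day they were collected. Each library came from a different animal, so every p-value below measures the spread between animals together with that of preparation. The comparison asks how the depot differs between an early and a later time while the liver regrows.

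White adipocytes store fatty acids as triglyceride and release them by lipolysis when other organs need fuel. In de novo lipogenesis, citrate exported from mitochondria is split by ATP citrate lyase (Acly) into acetyl-CoA, acetyl-CoA carboxylase (Acaca) makes malonyl-CoA, fatty acid synthase (Fasn) builds palmitate, and elongases and desaturases such as Elovl6 and Scd1 modify it. The pentose phosphate enzymes G6pdx and Pgd and malic enzyme (Me1) provide NADPH for these steps. The transcription factors Srebf1 and Mlxipl switch on much of this pathway after feeding, while glucocorticoids and fasting favour the release of fat. In mice, a liver that regrows after partial hepatectomy takes up fatty acids released by adipose tissue.

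No gene passed the test at an adjusted p of 0.05. Of 17012 genes tested with edgeR's quasi-likelihood test, 0 (0%) were called, and 568 (3.34%) had an unadjusted p under 0.05. Of these 568, 289 (1.7% of the genes tested) had higher and 279 (1.64%) had lower levels at day 7. The median log2 difference of all genes was 0.03, and 52.8% of the genes had a positive and 47.2% a negative one. The day 7 and day 3 libraries did not overlap for 463 genes (2.72%), with day 7 above day 3 for 230 (1.35%) and below it for 233 (1.37%). DESeq2, run as an alternative on the same counts, called 22 genes (0.13%), 16 higher and 6 lower at day 7. Voom with sample quality weights called 2 (0.0118%), Acly and Elovl6. Without day 7 library 1 edgeR called 4 (0.0229%), and without day 7 library 3 it called 1 (0.00572%). Without day 3 library 5 and day 7 library 1, 441 (2.54%) were called. These libraries were chosen with earlier results known, as resembling the other day, while day 7 library 2, which was also nearest to a day 3 library, was kept; leaving them out therefore favours a difference between the days. Values below are therefore given library by library, and no difference is described as a rise or a fall.

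**Figure D1:**
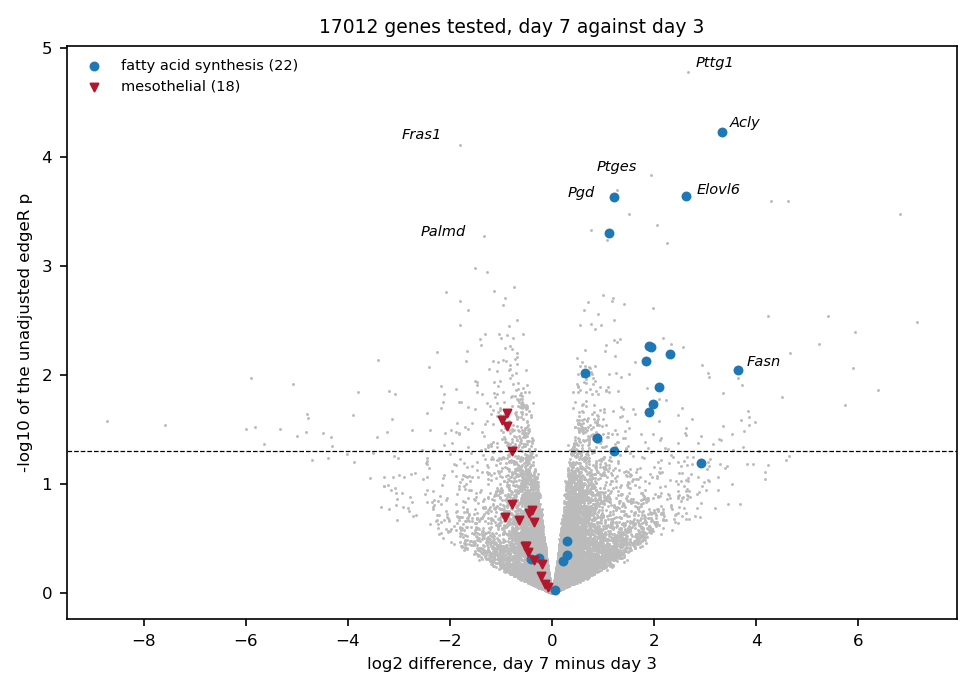
Each point is a gene, 17012 in all. The horizontal axis is the log2 difference (day 7 minus day 3) and the vertical axis is -log10 of the unadjusted edgeR p, with a dashed line at the unadjusted threshold of 0.05. The 22 fatty acid synthesis genes (blue circles) lie mostly to the right, 15 of them above the line, and the 18 mesothelial genes (red triangles) all lie to the left of 0.

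The genes with the smallest p included several steps of lipogenesis, and the promoters of Acly, Fasn, Pgd and Elovl6 are shown because the lipogenic values below turn on these genes. Each is a window of 300 bases around the gene's start in RefSeq on build GRCm38.p6, printed on the gene's own strand. Capitals mark the CCAAT box, searched as CCAAT on both strands, so that ATTGG is the same box on the other strand. The windows are chr11:100527951-100528250 (minus strand) for Acly, chr11:120824498-120824797 (minus) for Fasn, chr4:149166656-149166955 (minus, the first of 2 windows listed) for Pgd and chr3:129532136-129532435 (plus) for Elovl6.
Acly: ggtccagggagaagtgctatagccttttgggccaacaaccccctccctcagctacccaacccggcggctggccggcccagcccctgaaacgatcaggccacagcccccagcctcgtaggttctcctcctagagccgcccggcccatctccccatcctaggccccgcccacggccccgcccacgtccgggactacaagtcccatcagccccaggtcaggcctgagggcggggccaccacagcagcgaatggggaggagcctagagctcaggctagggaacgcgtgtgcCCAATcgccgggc
Fasn: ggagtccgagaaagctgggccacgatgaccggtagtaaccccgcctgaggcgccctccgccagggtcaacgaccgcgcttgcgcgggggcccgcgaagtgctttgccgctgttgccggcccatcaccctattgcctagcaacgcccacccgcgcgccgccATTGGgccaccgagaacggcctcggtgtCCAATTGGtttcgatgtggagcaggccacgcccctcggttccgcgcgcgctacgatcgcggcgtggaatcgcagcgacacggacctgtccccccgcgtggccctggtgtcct
Pgd: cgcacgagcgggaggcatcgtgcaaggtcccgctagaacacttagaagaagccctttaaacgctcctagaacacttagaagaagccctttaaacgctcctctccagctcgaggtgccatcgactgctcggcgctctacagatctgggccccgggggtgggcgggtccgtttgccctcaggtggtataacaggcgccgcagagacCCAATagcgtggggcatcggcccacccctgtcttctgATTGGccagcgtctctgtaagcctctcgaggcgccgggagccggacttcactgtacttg
Elovl6: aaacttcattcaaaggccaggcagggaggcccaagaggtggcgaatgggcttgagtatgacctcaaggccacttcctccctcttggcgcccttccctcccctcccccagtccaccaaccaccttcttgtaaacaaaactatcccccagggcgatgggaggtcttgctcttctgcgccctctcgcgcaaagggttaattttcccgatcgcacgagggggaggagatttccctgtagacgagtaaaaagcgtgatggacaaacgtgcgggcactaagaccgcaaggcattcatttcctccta
The Acly window held 1 match, the Pgd window 2 and the Fasn window 3, of which a pair on opposite strands overlap in CCAATTGG. The Elovl6 window held 0. A window was available for 19 of the 22 fatty acid synthesis genes, and 10 of these (52.6%) held CCAAT, against 37.9% of the first windows of 27025 genes. Palindromic E-boxes (CACGTG) were in 2 (10.5%) against 7.24%, and the sterol element searched as TCACNCCAC was in 1 (5.26%) against 1.22%. These matches describe letters in a window and say nothing about binding.

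Acly had one of the smallest p-values among all genes, and its day 7 libraries were split. Acly (ENSMUSG00000020917; chromosome 11, 100367179 to 100418827, minus strand, mm39), the enzyme that makes cytosolic acetyl-CoA, stood at 143, 140, 131, 146 and 176 CPM (library-scaled counts, a relative abundance) in day 3 libraries 1 to 5 and at 147, 2256 and 2009 CPM in day 7 libraries 1 to 3. Day 7 libraries 2 and 3 were above every other library of the series, while library 1 was inside the day 3 range. The sham libraries held 99.1 to 146 CPM. The log2 difference was 3.32 (SE 0.563, edgeR adjusted p = 0.437). Without day 7 library 1 it was 3.88 (edgeR adjusted p = 6.75e-06), and DESeq2 gave an adjusted p of 1.03e-05 with all libraries.

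Fasn, which builds palmitate, had the largest log2 difference of the 22 genes of fatty acid synthesis and a wide spread. Fasn (chromosome 11, 120696672 to 120715374, minus strand, mm39) stood at 597, 127, 102, 150 and 1939 CPM at day 3 and at 115, 11610 and 10170 CPM at day 7. Day 7 libraries 2 and 3 again lay far above the rest, library 1 was at the low end of day 3, and day 3 library 5 was the highest of its group. The sham libraries held 190 to 826 CPM, and the log2 difference was 3.65 (SE 1.18, edgeR adjusted p = 0.999). Acaca, which commits acetyl-CoA to fatty acid synthesis, showed the same split at a lower scale, with 286, 175, 164, 193 and 419 CPM at day 3 and 113, 1504 and 1226 CPM at day 7. Thrsp, a lipogenic regulator, stood at 67.5, 17.7, 39.7, 83.7 and 1066 CPM at day 3 and at 9.39, 3394 and 2359 CPM at day 7. Day 3 library 5 was the library of its group nearest to those 2 day 7 libraries for both genes.

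Elovl6 was 1 of 4 fatty acid synthesis genes with day 7 above day 3 without overlap, against 1.35% of all genes. The others were Pgd, Mid1ip1 and Taldo1. Elovl6, the elongase acting on palmitate, stood at 13.7, 9.30, 8.00, 11.3 and 14.8 CPM at day 3 and at 19.7, 86.6 and 106 CPM at day 7 (log2 difference 2.63 with SE 0.516, edgeR adjusted p = 0.479). Pgd, an NADPH-producing enzyme of the pentose phosphate pathway, stood at 258, 233, 229, 202 and 250 CPM at day 3 and at 377, 765 and 482 CPM at day 7 (1.21, SE 0.240, adjusted p = 0.479). Here day 7 library 1 was also above every day 3 library, though lower than the other day 7 libraries. Mid1ip1, which promotes the assembly of acetyl-CoA carboxylase into filaments, stood at 34.2 to 41.5 CPM at day 3 and at 50.4, 93.0 and 96.3 CPM at day 7. Taldo1, a sugar-rearranging enzyme of the pentose phosphate pathway, stood at 241 to 332 CPM at day 3 and at 390, 521 and 467 CPM at day 7.

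Across the list of 22 fatty acid synthesis genes, all tested, 20 had positive log2 differences, with a median of 1.52 against 0.03 for all genes. An unadjusted p under 0.05 with a higher level at day 7 was found for 15 of the 22, against 1.7% of all genes, and 0 passed after adjustment. Me1 and Srebf1 had the same split: Me1 stood at 137 to 443 CPM at day 3 and at 95.4, 1863 and 1307 CPM at day 7, and Srebf1, the transcription factor of lipogenesis, at 45.1 to 332 CPM and at 61.3, 913 and 738 CPM. Scd1, the stearoyl-CoA desaturase, did not have it: day 3 libraries ranged from 6412 to 22940 CPM and day 7 libraries held 5231, 14280 and 9790 CPM (log2 difference -0.41 with SE 0.574). G6pdx, the other pentose phosphate NADPH producer, stood at 202 to 391 CPM at day 3 and at 250, 279 and 282 CPM at day 7 (-0.26). These were the 2 members with a negative difference. Without day 7 library 1 the median of the list was 2.05, and without day 7 library 2 it was 0.90.

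**Figure D2:**
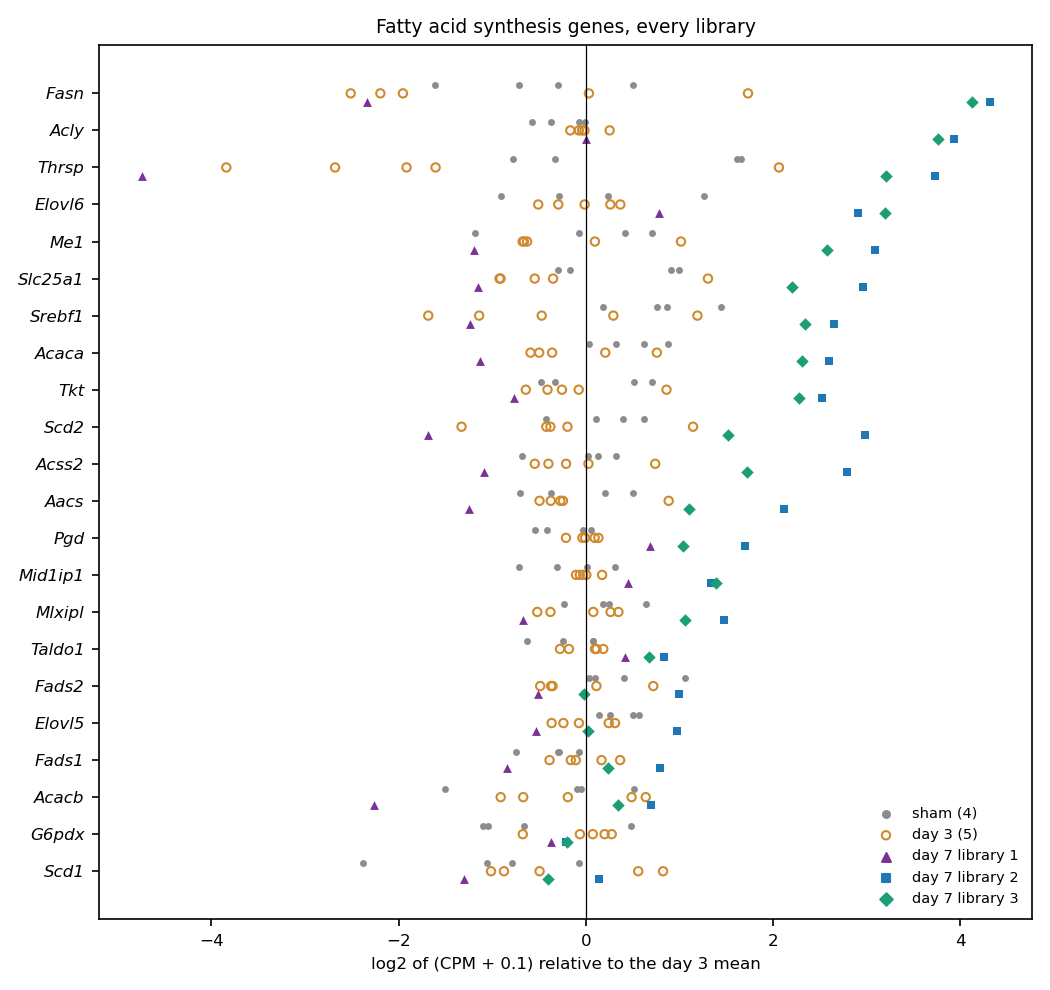
Each row is 1 of the 22 fatty acid synthesis genes; the horizontal axis is log2 of (CPM + 0.1) relative to the day 3 mean, with sham libraries as grey points, day 3 libraries as open circles and each day 7 library with its own symbol. Day 7 libraries 2 and 3 lie to the right for most genes, and day 7 library 1 lies below all day 3 libraries for 14 of the 22.

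The 3 day 7 animals did not share one profile. Over all genes, day 7 libraries 1, 2 and 3 lay above all 5 day 3 libraries for 19.9%, 18.2% and 17.6% of the genes and below all of them for 17.4%, 17.6% and 13.7%. For fatty acid synthesis, library 1 lay above all day 3 libraries for 4 of 22 genes and below all of them for 14. Library 2 lay above for 20 and library 3 for 16, and neither lay below for any member. Library 1 was nearest to day 3 library 2 by correlation across genes (0.936), library 2 to day 3 library 5 (0.957) and library 3 to sham library 2 (0.944). Genes are not independent, and these correlations are a description of the libraries.

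**Figure D3:**
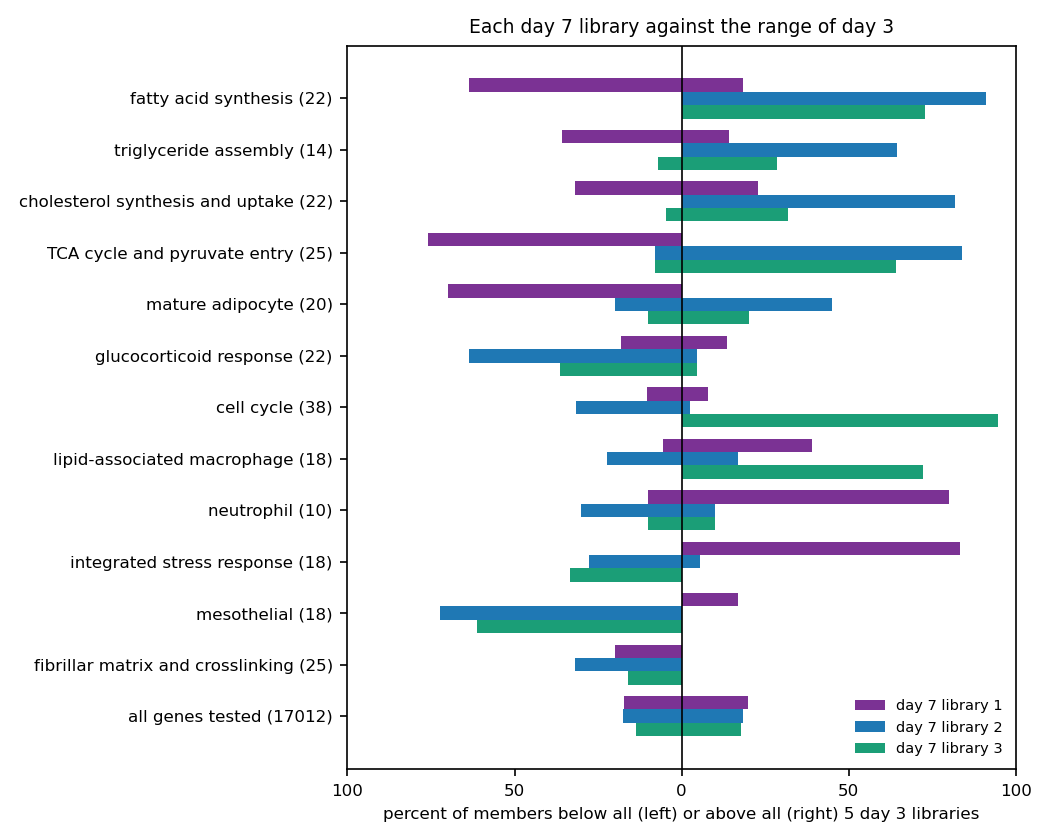
For 12 gene lists and for all genes tested, bars give the percent of members for which a day 7 library lay below all 5 day 3 libraries (left) or above all of them (right), with 1 colour per day 7 library. For fatty acid synthesis, library 1 points mostly left (63.6%) and libraries 2 and 3 point right (90.9% and 72.7%), for cell cycle only library 3 points far right (94.7%), and over all genes the 3 libraries are alike in size.

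Several facts about the libraries bear on every value above and below. Totals ran from 13128853 to 18106703 counts at day 3, from 15229197 to 16041931 at day 7 and from 16368077 to 23474246 in sham. Day 3 library 1 held 359 CPM of Xist, the RNA of the inactive X chromosome, and 0.643 CPM of the Y-linked gene Ddx3y, although its label says male; in the other libraries Xist was at most 1.84 CPM and Ddx3y at least 81.1 CPM. Adipoq (328 to 4331 CPM) and Fabp4 (5804 to 19560 CPM), both listed here as mature adipocyte genes, were present in every library. They did not rank the libraries alike: day 7 library 1 held the least Adipoq and 11440 CPM of Fabp4. All 14 listed marker genes of the epididymis lacked per-sample values and were not tested. Without day 3 library 1, 0 genes were called and 471 had an unadjusted p under 0.05. Because tissue was sequenced in bulk, fewer cells of a type and less RNA per cell cannot be told apart.

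Triglyceride assembly and cholesterol synthesis leaned the same way as fatty acid synthesis, with smaller differences. Of 14 triglyceride assembly genes, 11 had positive log2 differences (median 0.59). An unadjusted p under 0.05 with a higher level was found for 2, against 1.7% of all genes. Gpd1, which makes glycerol 3-phosphate from a glycolytic intermediate, stood at 1039, 542, 312, 589 and 699 CPM at day 3 and at 901, 2253 and 1881 CPM at day 7 (log2 difference 1.40 with SE 0.368, edgeR adjusted p = 0.999). Dgat2, which adds the last fatty acid to triglyceride, stood at 215, 127, 97.8, 93.5 and 937 CPM at day 3 and at 66.3, 2324 and 997 CPM at day 7. Both genes were high in day 7 libraries 2 and 3, and for Dgat2 day 3 library 5 was near library 3. Pck1, which makes glycerol backbones when glucose is scarce, stood on the other side: 1071 to 2561 CPM at day 3 and 695, 1800 and 341 CPM at day 7 (-1.06, SE 0.515).

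Of 22 genes of cholesterol synthesis and uptake, 21 had positive log2 differences (median 0.67). An unadjusted p under 0.05 with a higher level was found for 3, against 1.7% of all genes. Mvd, a decarboxylase of the mevalonate pathway, was the member with day 7 above day 3 without overlap, against 1.35% of all genes. It stood at 4.65, 6.18, 4.93, 6.87 and 6.83 CPM at day 3 and at 10.8, 17.1 and 8.66 CPM at day 7. Nsdhl, a later enzyme of sterol synthesis, stood at 8.13 to 23 CPM at day 3 and at 8.13, 50.9 and 34.1 CPM at day 7. Hmgcs1, which starts the mevalonate pathway, had a log2 difference of -0.08 (SE 0.455), with 97.5 to 221 CPM at day 3 and 69.8, 269 and 87.8 CPM at day 7. Day 7 library 2 lay above all day 3 libraries for 18 of the 22 genes, library 3 for 7 and library 1 for 5. Without library 2 the median was 0.24.

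Genes of the TCA cycle and of pyruvate entry followed the split of lipogenesis, and those of fatty acid oxidation had no common direction. Of 25 genes of the TCA cycle and of pyruvate entry, 23 had positive log2 differences (median 0.51). Day 7 library 2 lay above all day 3 libraries for 21 of them and library 3 for 16, while library 1 lay below all day 3 libraries for 19. Pdhb, a subunit of pyruvate dehydrogenase, stood at 134, 85.9, 86.5, 102 and 179 CPM at day 3 and at 82.4, 480 and 332 CPM at day 7 (log2 difference 1.34 with SE 0.446). Pdk2, a kinase that switches pyruvate dehydrogenase off, was below every day 3 library in all day 7 libraries: 190, 224, 224, 367 and 145 CPM at day 3 and 81.7, 140 and 137 CPM at day 7 (-0.94, SE 0.348, edgeR adjusted p = 0.999). Sham libraries held 130 to 327 CPM of Pdk2. All 30 tested genes of oxidative phosphorylation had positive log2 differences (median 0.34), but the day 7 libraries were split here too. Library 2 lay above all day 3 libraries for 30 of them and library 3 for 18. Library 1 lay below all day 3 libraries for 17 and above all of them for 1. Cycs, cytochrome c, was the 1 member whose groups did not overlap, at 84.0 to 106 CPM at day 3 and 130, 144 and 126 CPM at day 7. Without day 7 library 2 the medians were 0.22 for the TCA cycle and pyruvate entry and 0.12 for oxidative phosphorylation, and without day 7 library 1 they were 0.85 and 0.65. Of 19 genes of fatty acid oxidation, 9 had positive and 10 negative log2 differences (median -0.09). Day 7 lay below day 3 without overlap for 2 of them, against 1.37% of all genes, and above it for 0. The summed level of this list was 3468 to 5636 CPM at day 3, 2848 to 3880 CPM at day 7 and 2021 to 3581 CPM in sham. For these genes day 7 library 2 lay above all day 3 libraries for 8 and library 3 for 2, while library 1 lay below all of them for 11.

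Glycolysis and glucose uptake genes differed little in size but in 1 direction. All 20 members had positive log2 differences (median 0.34), 2 of them with an unadjusted p under 0.05, against 1.7% of all genes with a higher level. Their summed level was 3982 to 5733 CPM at day 3, 6132 to 6609 CPM at day 7 and 3930 to 4651 CPM in sham. Ldha, a subunit of lactate dehydrogenase, stood at 735, 783, 663, 494 and 665 CPM at day 3 and at 932, 1258 and 1002 CPM at day 7, so that its groups did not overlap (log2 difference 0.67 with SE 0.237). Aldoa, an aldolase, stood at 837 to 1183 CPM at day 3 and at 1123, 1686 and 1621 CPM at day 7. The list score (the members' average log2 CPM after each gene was centred on its 12-library mean) was 0.281, 0.254 and 0.182 in day 7 libraries 1 to 3. Day 3 library 2 scored higher (0.355), and the other day 3 libraries lay between -0.251 and -0.05. The median was 0.61 without day 3 library 2, 0.26 without day 3 library 1 and 0.21 with the replicate number as a block. Without day 3 library 5 and day 7 library 1 together it was 0.14.

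Lipolysis and lipid droplet genes had no common direction, with 11 of 20 positive and a median of 0.03. Pnpla2, the adipose triglyceride lipase that opens lipolysis, stood at 4036, 4607, 3356, 4288 and 2659 CPM at day 3 and at 2804, 2291 and 2577 CPM at day 7 (log2 difference -0.57 with SE 0.310, edgeR adjusted p = 0.999). Lipe, the hormone-sensitive lipase, stood at 912 to 2077 CPM at day 3 and at 429, 1658 and 1016 CPM at day 7 (-0.42). The groups overlapped for both lipases. Npr3, the clearance receptor of natriuretic peptides, stood at 111, 319, 281, 188 and 478 CPM at day 3 and at 77.6, 65.8 and 154 CPM at day 7 (-1.48, SE 0.501), and Npr1, their signalling receptor, at 103 to 189 CPM and at 65.9, 91.7 and 116 CPM (-0.56).

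Among 20 genes of the mature adipocyte, 13 had positive log2 differences (median 0.30), and day 7 library 1 was the lowest of all 12 libraries by list score (-2.01, against -0.645 to 1.03 at day 3). That library lay below all day 3 libraries for 14 of the 20 genes. Adipoq, which encodes the hormone adiponectin, stood at 1502, 996, 960, 909 and 4331 CPM at day 3 and at 328, 3523 and 2028 CPM at day 7. Lep, which encodes leptin, stood at 605, 447, 331, 96.7 and 581 CPM at day 3 and at 15.6, 172 and 403 CPM at day 7. For both hormones day 7 library 1 was the lowest library of the series. Pparg, the transcription factor of fat cell identity, stood at 118 to 194 CPM at day 3 and at 74.5, 219 and 221 CPM at day 7. The median of the list was -0.33 without day 7 library 2, 0.79 without day 7 library 1 and 0.87 without day 3 library 5. Nrg4, a hormone secreted by fat, stood at 22.8 to 45.4 CPM at day 3 and at 35.5, 86.6 and 80.9 CPM at day 7 (log2 difference 1.05 with SE 0.314). Sncg, synuclein gamma of adipocytes, was 1 of 7 members with negative log2 differences, with 50.3 to 246 CPM at day 3 and 12.7, 41.1 and 59.4 CPM at day 7 (-1.51, SE 0.568). Fabp4 (-0.74, SE 0.332), Gpihbp1 (-0.92) and Lep (-1.07) were also among these 7. Fabp4 stood at 10450 to 19560 CPM at day 3 and at 11440, 6895 and 5804 CPM at day 7. Its day 7 library 1 was inside the day 3 range, and libraries 2 and 3 were below it.

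Of 14 listed genes of brown and beige fat 10 were tested, 6 with positive log2 differences (median 0.77). The median was 0.39 without day 7 library 1, 0.026 without day 7 library 2 and -0.057 with a stricter count filter. The thermogenic uncoupler Ucp1 had no per-sample values and was not tested. Cox8b, a cytochrome oxidase subunit of brown fat, stood at 1.64, 0, 0, 0.469 and 5.83 CPM at day 3 and at 0, 21.2 and 8.20 CPM at day 7.

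Glucocorticoid response genes were lower on average at day 7, and the libraries again divided. Of 22 members, 21 had negative log2 differences (median -0.59), 0 with an unadjusted p under 0.05. The median was -1.13 without day 7 library 1 and -0.33 without day 7 library 2. Scores of the list in the first 4 day 3 libraries lay between 0.762 and 1.06, and that of day 7 library 1 was 0.714. It was -0.449 in day 3 library 5, -0.629 in day 7 library 2 and -0.523 in day 7 library 3, and -1.26 to -0.36 in sham. Angptl4, an inhibitor of lipoprotein lipase induced by fasting, stood at 519, 1850, 910, 692 and 540 CPM at day 3 and at 773, 372 and 140 CPM at day 7 (log2 difference -1.07 with SE 0.521). Sgk1, a kinase induced by corticosteroids, stood at 288, 266, 237, 237 and 110 CPM at day 3 and at 234, 77.0 and 69.9 CPM at day 7. In both genes day 7 library 1 was inside the range of day 3 and the other day 7 libraries were below it. Fkbp5, a chaperone partner of the glucocorticoid receptor, differed from this order: 793, 482, 473, 501 and 232 CPM at day 3 and 273, 153 and 570 CPM at day 7. Tsc22d3, another member, differed from it too, at 211 to 334 CPM at day 3 and at 119, 130 and 268 CPM at day 7 (-0.59, SE 0.330). For Tsc22d3 day 7 libraries 1 and 2 were below the day 3 range and library 3 was inside it. Nr3c1, the receptor, was the member on the positive side (0.25), at 111 to 213 CPM at day 3 and at 92.7, 218 and 176 CPM at day 7. Clock genes had a median of 0.00, with 10 of 19 positive and 9 negative. Dbp, an output gene of the clock, stood at 2.09 to 30.3 CPM at day 3 and at 8.51, 56.4 and 77.3 CPM at day 7 (log2 difference 1.56 with SE 0.853). The clock genes Cry2 (-0.53), Per2 (-0.55), Npas2 (-1.15) and Per1 (-0.40) had negative log2 differences.

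**Figure D4:**
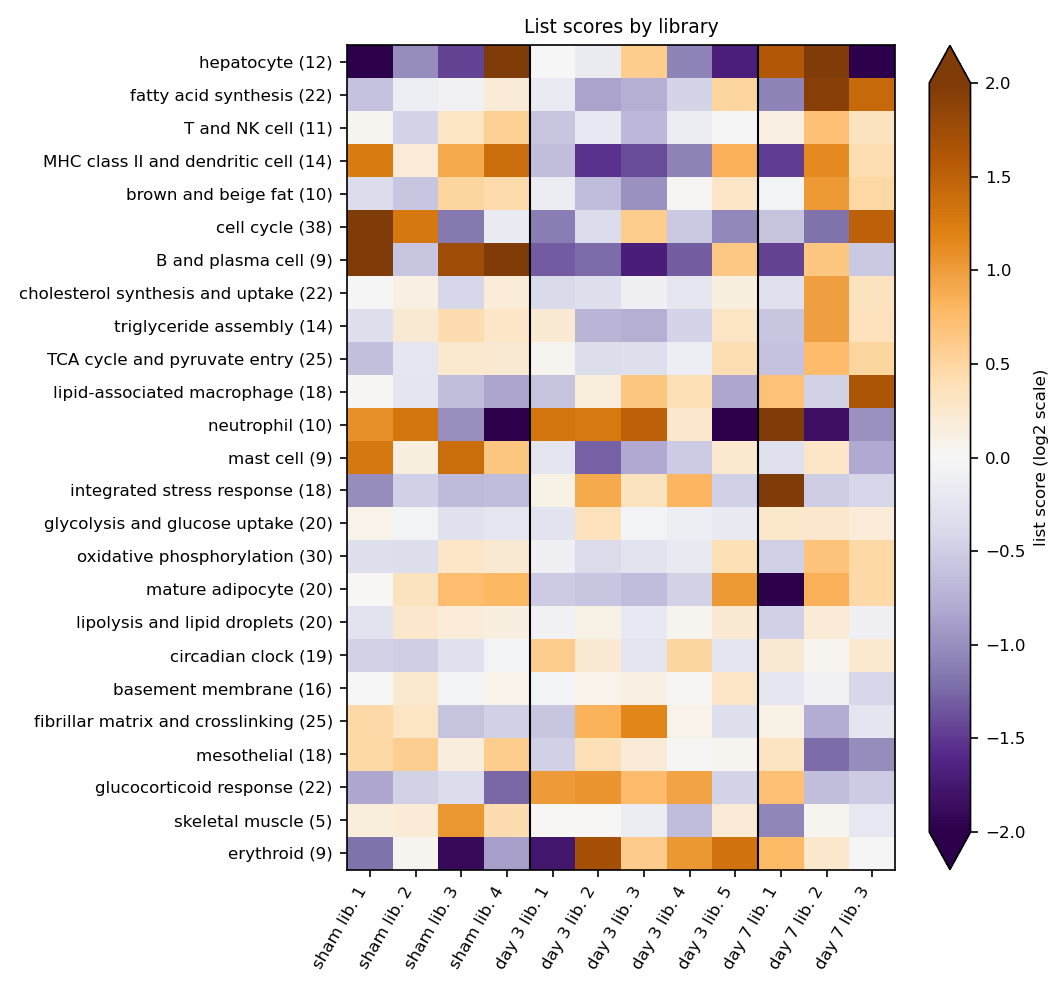
Each cell is the list score (log2 scale, colour limits -2 and 2) of 1 of 25 gene lists, with its number of tested genes in brackets, in 1 of the 12 libraries; black lines part sham, day 3 and day 7. Fatty acid synthesis is high in day 7 libraries 2 and 3 (1.93 and 1.44), neutrophil and integrated stress response genes in day 7 library 1 (2.18 and 2.04), and cell cycle and lipid-associated macrophage genes in day 7 library 3 (1.5 and 1.64).

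Pttg1 had the smallest p of all genes. It encodes securin, which inhibits the enzyme separase until anaphase (ENSMUSG00000020415, chromosome 11, 43311077 to 43317079, minus strand, mm39). It stood at 2.43, 3.30, 5.23, 3.17 and 3.05 CPM at day 3 and at 28.6, 29.9 and 6.56 CPM at day 7. Day 7 libraries 1 and 2 lay in the sham range of 28.6 to 37.5 CPM, and day 7 library 3 was just above the highest day 3 library. The log2 difference was 2.66 (SE 0.40, edgeR adjusted p = 0.279), and the call was made by DESeq2 (adjusted p = 1.03e-05) and by edgeR without day 7 library 3 (log2 difference 3.12, adjusted p = 0.00105).

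The other cell cycle genes had the opposite order among the day 7 libraries. Of 38 members, 36 had positive log2 differences (median 0.69). Pttg1 was the 1 with an unadjusted p under 0.05, against 1.7% of all genes with a higher level. Day 7 library 3 lay above all day 3 libraries for 36 of the 38, library 1 for 3 and library 2 for 1. Mki67, a marker of cycling cells, stood at 3.65, 8.38, 30.4, 5.40 and 9.74 CPM at day 3 and at 7.00, 5.55 and 77.4 CPM at day 7. Prc1, which bundles the microtubules of the spindle midzone, stood at 1.43 to 3.87 CPM at day 3 and at 6.37, 1.26 and 25.4 CPM at day 7. Without day 7 library 3 the median of the list was -0.41, and without library 1 or library 2 it was 1.14 or 1.17. The sham libraries ranged from 6.11 to 191 CPM for Mki67.

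Genes of lipid-associated macrophages, phagocytes that take up fat from dying adipocytes, were also high in day 7 library 3. Of 18 members, 16 had positive log2 differences (median 0.46), 4 of them with an unadjusted p under 0.05, against 1.7% of all genes with a higher level. Library 3 lay above all day 3 libraries for 13. The median was 0.17 without day 7 library 3, 0.91 without day 7 library 2 and 0.30 without day 3 library 5. With the replicate number as a block it was -0.017. Mmp12, the macrophage elastase, was the member with day 7 above day 3 without overlap, against 1.35% of all genes. It stood at 0, 3.67, 15.0, 14.0 and 14.7 CPM at day 3 and at 16.8, 51.9 and 171 CPM at day 7 (log2 difference 3.08 with SE 1.02, edgeR adjusted p = 0.999). Itgax, the integrin CD11c, stood at 0.143, 0.550, 2.17, 2.11 and 3.12 CPM at day 3 and at 2.46, 8.73 and 17.5 CPM at day 7 (2.56, SE 0.770). Both were highest in library 3 and next highest in library 2. Atp6v0d2, a proton pump subunit of macrophages and osteoclasts, stood at 2.57 to 21.2 CPM at day 3 and at 15.3, 3.57 and 120 CPM at day 7. The summed level of the list was 16390 to 22310 CPM at day 3 and 17150 to 29780 CPM at day 7, and its part in the cell cycle values was not tested. Resident macrophage genes were high in day 7 library 3 as well, so this trait was not particular to the lipid-associated list. Library 3 lay above all day 3 libraries for 12 of the 20 resident genes and below for 0. Its list score there (0.893) was the highest of the 12 libraries, and the list median was 0.19.

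Day 7 library 1 had the highest list scores for neutrophil and integrated stress response genes among the 8 hepatectomy libraries (2.18 and 2.04). Of 10 tested neutrophil genes (13 listed; Ly6g, Camp and Ltf were not tested), library 1 lay above all day 3 libraries for 8 and libraries 2 and 3 for 1 each. S100a9, a subunit of calprotectin, stood at 58.8, 80.2, 39.6, 23.4 and 1.86 CPM at day 3 and at 199, 5.09 and 5.91 CPM at day 7. Retnlg, a resistin-like gene of neutrophils, stood at 23.9, 38.4, 23.5, 6.81 and 0.729 CPM at day 3 and at 121, 0.463 and 0.919 CPM at day 7. Day 7 libraries 2 and 3 lay with day 3 library 5 at the low end of both genes. The summed level of the list was 30.8 to 317 CPM at day 3, 48.5 to 722 CPM at day 7 and 60.4 to 350.0 CPM in sham. The list had 8 positive log2 differences (median 0.42), and without day 7 library 1 the median was -3.12. It was 0.73 without day 7 library 2, 0.69 without library 3 and 0.22 without day 3 library 5.

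The integrated stress response, a programme of amino acid synthesis and transport genes driven by Atf4, had the same order. Of 18 members 14 had positive log2 differences (median 0.35), library 1 lay above all day 3 libraries for 15, and without it the median was -1.03. The median was 0.65 without day 7 library 3 and 0.23 without day 3 library 5. Slc7a11, the cystine transporter, stood at 1.57, 24.6, 8.15, 7.04 and 0.597 CPM at day 3 and at 154, 0.926 and 1.12 CPM at day 7. Gdf15, a stress hormone that lowers appetite, stood at 2.43, 7.34, 10.5, 11.8 and 0.265 CPM at day 3 and at 82.2, 0.727 and 2.69 CPM at day 7. Il6, a cytokine, stood at 0.464 to 2.14 CPM at day 3 and at 10.2, 0.331 and 0 CPM at day 7. In all of these genes the other day 7 libraries were inside or below the day 3 range. Psat1, an enzyme of serine synthesis, was higher in every day 7 library than in 4 of the 5 day 3 libraries, at 76.7, 190, 181, 162 and 214 CPM at day 3 and 276, 262 and 204 CPM at day 7. The inflammatory genes Lcn2 and Ccl2 overlapped between the days, Lcn2 at 83.3 to 704 CPM at day 3 and at 832, 77.6 and 39.4 CPM at day 7, and Ccl2 at 2.85 to 317 CPM and at 151, 4.70 and 88.2 CPM.

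Immune lists of antigen presentation and lymphocytes had positive medians. Of 14 tested genes of MHC class II and dendritic cells, 10 had positive log2 differences (median 0.86). H2-DMa, which loads peptides onto MHC class II, stood at 5.29, 1.28, 4.04, 3.58 and 18.2 CPM at day 3 and at 1.57, 19.0 and 17.4 CPM at day 7. Day 3 library 5 was level with day 7 libraries 2 and 3, and day 7 library 1 with the other day 3 libraries. Ighm, the immunoglobulin heavy chain of naive B cells, stood at 12.1, 4.77, 2.17, 5.81 and 139 CPM at day 3 and at 2.84, 335 and 54 CPM at day 7. The medians were 0.68 for 9 tested B and plasma cell genes (7 positive), 0.41 for 9 mast cell genes (6 positive) and 1.19 for 11 T and NK cell genes (9 positive), most of which were detected at under 3 CPM. Without day 7 library 2 the medians were -0.14 for MHC class II and dendritic cells, -0.20 for B and plasma cells, -0.25 for mast cells and 0.36 for T and NK cells. They were 1.92 for MHC class II and dendritic cells and 1.57 for B and plasma cells without day 3 library 5.

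Mesothelial genes, which mark the membrane covering the depot, were all on the negative side. All 18 members had negative log2 differences (median -0.49), 4 with an unadjusted p under 0.05, against 1.64% of all genes. Day 7 library 2 lay below all day 3 libraries for 13 members and library 3 for 11, while library 1 lay below for 0. Upk3b, a uroplakin of mesothelium, stood at 195, 300, 252, 234 and 241 CPM at day 3 and at 229, 78.9 and 90.4 CPM at day 7 (log2 difference -0.88 with SE 0.340, edgeR adjusted p = 0.999). Wt1, a transcription factor of mesothelium, stood at 95.6, 56.9, 41.3, 37.7 and 72.8 CPM at day 3 and at 43.7, 32.0 and 23.5 CPM at day 7. Cldn15, a tight junction protein, stood at 37 to 109 CPM at day 3 and at 61.9, 24.3 and 27.9 CPM at day 7. The summed level of the list overlapped between the days, at 3822 to 7635 CPM and 4264 to 5413 CPM. Without day 7 libraries 1, 2 and 3 in turn the median was -1.47, -0.30 and -0.25.

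Extracellular matrix genes were lower on average at day 7. Of 25 tested genes of fibrillar matrix and crosslinking, 24 had negative log2 differences, 0 with an unadjusted p under 0.05. The median was -0.46, and -0.15 without day 3 library 3. List scores overlapped, from -0.574 to 1.17 at day 3 and from -0.776 to 0.109 at day 7. The groups did not overlap for 2 members, against 1.37% of all genes with day 7 below day 3. These were Sparc, a collagen-binding glycoprotein, at 1969, 3304, 3487, 1786 and 2688 CPM at day 3 and 1609, 1670 and 1584 CPM at day 7 (log2 difference -0.71 with SE 0.364), and Col6a1, a chain of collagen VI, at 329, 435, 534, 376 and 386 CPM and at 241, 260 and 314 CPM (-0.60, SE 0.287). The 3 day 7 libraries were close to each other for both genes. Thbs2, a matricellular protein, was more scattered, at 91.7 to 1082 CPM at day 3 and at 395, 15.4 and 126 CPM at day 7.

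Fras1, a basement membrane protein that anchors epithelia, had the smallest p among genes lower at day 7. Fras1 (ENSMUSG00000034687; chromosome 5, 96521814 to 96932588, plus strand, mm39) stood at 8.43, 15.5, 14.3, 11.6 and 17.7 CPM at day 3 and at 3.02, 4.50 and 4.07 CPM at day 7. All day 7 libraries were below all day 3 and all sham libraries (11.9 to 21.8 CPM). The log2 difference was -1.80 (SE 0.318, edgeR adjusted p = 0.437; DESeq2 adjusted p = 0.000281). Nid1, which links laminin to collagen IV, stood at 703, 872, 870, 574 and 695 CPM at day 3 and at 501, 475 and 541 CPM at day 7 (-0.56, SE 0.232). Of the 16 tested basement membrane genes 12 had negative log2 differences (median -0.44; -0.27 without day 7 library 3).

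**Figure D5:**
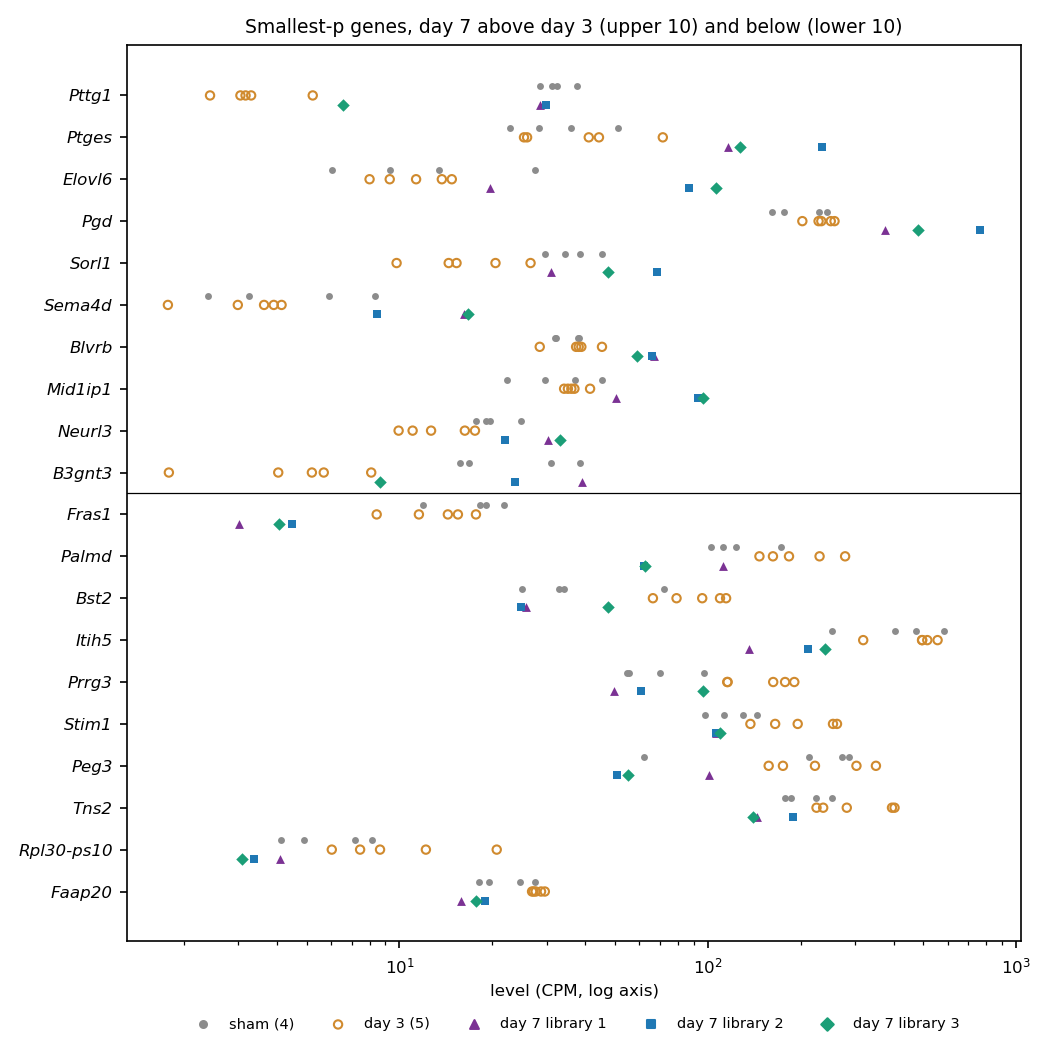
Levels (CPM, log axis) of the 10 genes with the smallest p among those with day 7 above day 3 (upper rows) and the 10 with day 7 below day 3 (lower rows), with sham libraries as grey points, day 3 libraries as open circles and day 7 libraries with 1 symbol each. These genes were selected for groups that do not overlap; for Fras1 all day 7 libraries lie below sham as well, and for Pttg1 day 7 libraries 1 and 2 (28.6 and 29.9 CPM) lie with sham.

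Among the other genes with the smallest p and groups that do not overlap, Ptges encodes the inducible prostaglandin E synthase. Ptges stood at 41.1, 71.4, 25.3, 25.9 and 44.4 CPM at day 3 and at 116, 234 and 127 CPM at day 7, with 22.9 to 51 CPM in sham (log2 difference 1.93 with SE 0.364, edgeR adjusted p = 0.479). Sema4d, a semaphorin of immune cells, stood at 4.15, 1.77, 2.99, 3.64 and 3.91 CPM at day 3 and at 16.1, 8.46 and 16.7 CPM at day 7 (2.06, SE 0.439). Blvrb, a biliverdin reductase of haem breakdown, stood at 28.5 to 45.4 CPM at day 3 and at 67.1, 66.1 and 58.9 CPM at day 7 (0.77, SE 0.165). All day 7 libraries were above all day 3 libraries for these genes, and for Sema4d and Blvrb library 1 was above library 2. Sorl1, a sorting receptor, stood at 9.79 to 26.6 CPM at day 3 and at 31.1, 68.3 and 47.4 CPM at day 7, Neurl3, a ubiquitin ligase, at 9.94 to 17.6 CPM and at 30.3, 22 and 33.1 CPM, and B3gnt3, a glycosyltransferase, at 1.79 to 8.10 CPM and at 39, 23.7 and 8.66 CPM. The sham range was 29.8 to 45.5 CPM for Sorl1, 17.7 to 24.8 CPM for Neurl3 and 15.7 to 38.5 CPM for B3gnt3, above the day 3 libraries of each.

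On the negative side, Bst2 (tetherin, an interferon-induced restriction factor) stood at 115, 110, 79.2, 95.9 and 66.3 CPM at day 3 and at 25.8, 24.7 and 47.4 CPM at day 7, with 25 to 72.2 CPM in sham (log2 difference -1.51 with SE 0.360, edgeR adjusted p = 0.992). Bst2 was the lowest of 26 tested interferon response genes, of which 21 had positive log2 differences (median 0.27). Itih5, a hyaluronan-binding protein, stood at 556, 496, 515, 319 and 495 CPM at day 3 and at 136, 211 and 241 CPM at day 7 (-1.28, SE 0.308), below the sham range of 252 to 584 CPM. Peg3, an imprinted zinc finger gene, stood at 158 to 351 CPM at day 3 and at 101, 50.6 and 55.2 CPM at day 7 (-1.81, SE 0.472). Sham libraries of Peg3 ran from 61.9 to 287 CPM and overlapped both days. Stim1, the calcium sensor of the endoplasmic reticulum, stood at 137 to 262 CPM at day 3 and at 106, 106 and 110 CPM at day 7 (-0.92, SE 0.238). Palmd, a paralemmin family member, stood at 147 to 279 CPM at day 3 and at 112, 62.0 and 62.5 CPM at day 7 (-1.34, SE 0.294). The same direction held for Prrg3 (-1.14), Tns2 (-0.97), Faap20 (-0.68) and Rpl30-ps10 (-1.64), which is a pseudogene that can share reads with Rpl30 and is uncertain for that reason.

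Transcripts of blood, liver and muscle were unevenly spread over the libraries. Of 9 tested erythroid genes, 7 had negative log2 differences (median -0.78; -1.34 without day 7 library 1 and -0.35 without day 3 library 2). Hbb-bs, a beta-globin gene, stood at 861, 11360, 4134, 6625 and 3872 CPM at day 3 and at 5134, 1608 and 1471 CPM at day 7. The alpha-globin gene Hba-a2 and the beta-globin gene Hbb-bt (-0.95 and -0.77) have near-identical neighbours, so the split of reads among globin genes is uncertain. Of 12 tested hepatocyte genes 10 had positive log2 differences, with a median of 2.26 that was 0.87 without day 7 library 2 and -0.22 with voom. Alb, albumin, stood at 1.53 to 11.7 CPM at day 3 and at 24.6, 192 and 1.57 CPM at day 7, with 2315 CPM in sham library 4 and 1.79 to 5.99 CPM in the other sham libraries. Of 5 tested skeletal muscle genes 3 had negative and 2 positive log2 differences, with a median of -0.62 that was -0.046 without day 7 library 3. Acta1, skeletal muscle actin, stood at 41.6, 5.57, 6.35, 5.05 and 8.95 CPM at day 3 and at 3.59, 2.25 and 3.08 CPM at day 7 (log2 difference -2.18). Myl1, another muscle gene of the list, had a log2 difference of 1.08. The part of these transcripts in the other values was not tested.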

How the data were processed

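Bulk RNA of eWAT was sequenced in 12 mice, of which 8 enter this comparison. Per the submitters' processing notes, Partek, STAR and DESeq2 were used with build mm39; versions, settings and roles are not given in the sources used here. Strandedness is not stated, so reads of overlapping or antisense genes could not be separated. The labels name polyA RNA, and the design text speaks of total RNA.

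The tests used the expected counts that the authors deposited, raw and not normalized per the file headers; 80.6% of them lay within 0.05 of a whole number. A deposited block of normalized count signal, made by the authors, served only for matching. The deposited per-sample lines do not stand beside their own genes: 18065 of 18086 stood beside another gene. Each line was assigned to the gene whose deposited mean, maximum and geometric mean it gave (relative tolerance 3e-05, or 0.005 for the geometric mean). This matched 18070 lines to 1 gene, neighbours settled 16, and 0 broke the gene order. The 4065 genes without values, holding 0.0784% of normalized counts, were not tested. Columns of no labelled sample numbered 0.

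After rounding, edgeR 4.0.16 (R 4.3.3) was run (filterByExpr, minimum count 10; TMM scaling; robust quasi-likelihood F-test over all 12 libraries with 1 coefficient per group). The Benjamini-Hochberg adjustment covered 17012 genes, and adjusted p-values printed without a tool are edgeR's. Each SE was derived from that test, as the size of the log2 difference divided by the square root of its F statistic. Levels are TMM-scaled CPM, comparable between libraries and not between genes of different length. List scores use a prior count of 2. Precision is limited by 13128853 to 23474246 counts per library and by 3 animals at day 7. Alternatives were DESeq2 1.42.0, voom with quality weights (limma 3.58.1), relative log expression (RLE) factors, other count filters, the 8 libraries alone, a replicate block and libraries left out. The edgeR fit was tested on simulated data.

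The comparison, the 44 gene lists and the rule for naming genes were chosen with earlier results of these data known. Genes named are, per direction, the 10 with the smallest p among those whose groups do not overlap, whose mean reaches 1 CPM and whose symbol is not a predicted model; up to 4 members of each described list with the smallest p, plus members against its median; and fixed genes of fat, inflammation and library identity. Further members of fatty acid synthesis were named after their values were seen. Lists are described where the median was at least 0.3 in size with 5 or more members tested, together with 5 lists described whatever their median. Promoter windows are RefSeq's, on build GRCm38.p6, and coordinates of genes are the deposited mm39 ones.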

Additional observations from a re-analysis of the deposited data

Results flagged for a closer look

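Among the 114 named genes, the levels of the sham and the day 3 libraries gave 228 sets of values, and in 25 of them 1 library lay far from the others of its group. The rule has a nominal chance rate of about 1 in 20 groups, but the 25 cannot be judged against it. Alb, Xist and Ddx3y were named because they mark libraries standing apart, and genes are not independent. The day 7 group, with 3 libraries, was not tested in this way.

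Day 3 library 5 accounted for 9 of the 25. It was the highest of its group for Dgat2 (937 CPM, against 93.5 to 215 CPM in the other 4), Fasn (1939 CPM, against 102 to 597), Adipoq (4331 CPM, against 909 to 1502) and Nr3c1 (213 CPM, against 111 to 133). It was also the highest for the immune genes H2-DMa (18.2 CPM), Ighm (139 CPM) and Mcpt4 (9.02 CPM), and for Cox8b (5.83 CPM). It was the lowest for Sgk1 (110 CPM, against 237 to 288). The same library was the day 3 library nearest to day 7 library 2.

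Day 3 library 1 stood apart in 4 genes: Xist (359 CPM), Ddx3y (0.643 CPM, against 123 to 144), Acta1 (41.6 CPM, against 5.05 to 8.95) and Ebf2 (22.4 CPM, against 42 to 48.3). Day 3 library 3 was high for Mki67 (30.4 CPM, against 3.65 to 9.74) and Fgb (3.36 CPM), and day 3 library 4 was low for Itih5 (319 CPM, against 495 to 556).

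In sham library 4, genes of hepatocytes stood apart, with 2315 CPM of Alb, 247 CPM of Ahsg, 216 CPM of Hpx and 196 CPM of Fgb, against at most 5.99, 1.76, 1.5 and 0.673 CPM in the other sham libraries. Sham library 1 was high for Ldha (836 CPM) and Il7r (5.51 CPM). Sham library 2 was high for Nsdhl (16.5 CPM) and low for Igkc (1.19 CPM, against 71.9 to 82.7), and sham library 3 was high for Tbx1 (2.45 CPM).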

How the results depend on the processing

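The count of genes called was 0 with RLE factors, with either other count filter and with the 8 libraries alone (438 genes at an unadjusted p under 0.05), and also without day 3 library 1 and sham library 4 together. It was 22 with DESeq2 (0.13%), with 61 adjusted p-values given as NA, and 2 with voom (0.0118%). Of the 22, 19 had groups that did not overlap and 4 were fatty acid synthesis genes. Leaving out 1 library at a time gave 0 to 4 calls: 4 without day 7 library 1 (Acly, Elovl6, AA914427 and Acaca), 1 without day 7 library 3 (Pttg1), and 0 otherwise. Without day 3 library 5 and day 7 library 1 together, 441 genes were called (2.54%), 286 higher and 155 lower. These libraries were chosen with earlier results known, as resembling the other day; day 7 library 2, also nearest to a day 3 library, was kept.

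The labels do not say whether equal replicate numbers pair animals. The correlation of same-numbered deviations was 0.068, -0.371 and 0.089, and that of the other pairs ran from -0.592 to 0.619. With so few libraries these values cannot decide whether animals were paired. With the number as a block, 0 genes were called and 958 had an unadjusted p under 0.05. In that fit Retnlg (-2.25), S100a9 (-1.89), Slc7a11 (-0.21), Il6 (-1.69) and Actn3 (0.82) had the other sign.

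Of 114 named genes, 90 kept their sign in all alternatives. With voom the sign turned for Retnlg (-3.08), S100a9 (-1.81), Slc7a11 (-1.70), Gdf15 (-1.10) and Il6 (-3.76). Without day 3 library 5 and day 7 library 1 it turned for Retnlg (-5.05), S100a9 (-3.20), Slc7a11 (-3.33), Gdf15 (-2.23), Il6 (-3.20), Mmp9 (-0.04), Hmgcs1 (0.38), Lipe (0.044) and Scd1 (0.081). Without day 3 library 1 and sham library 4 it turned for Hmgcs1 (0.13) and Ddx3y (-0.13). Leaving out single libraries, the log2 difference ranged from -4.72 to 1.71 for Retnlg, -2.87 to 1.33 for S100a9, -3.01 to 3.58 for Slc7a11, -1.91 to 2.71 for Gdf15, -2.94 to 1.95 for Il6, -2.79 to 0.15 for Lcn2 and -1.30 to 0.36 for Ccl2. It ranged from -0.93 to 0.28 for Hmgcs1, -0.56 to 0.89 for Adipoq, -0.047 to 0.54 for Pparg, -0.023 to 0.55 for Nr3c1, -0.069 to 1.75 for Tbx1, -0.85 to 2.14 for Mki67, -0.33 to 1.70 for Kif23 and -0.15 to 2.68 for Atp6v0d2. It ranged from -0.26 to 2.03 for Cd22, -0.20 to 4.46 for Ighm, -1.84 to 1.57 for Igkc, -0.25 to 3.66 for Mcpt4 and -0.13 to 0.33 for Ddx3y. The cause of these turns was not tested beyond the library left out. The lowest and highest median of fatty acid synthesis were 0.90 and 2.34 across all alternatives. Of the 25 list medians, 6 turned sign with voom (hepatocyte -0.22, integrated stress response -0.74 and neutrophil -1.61 among them), 6 without day 7 library 2, 3 with the replicate block (neutrophil -1.88 and lipid-associated macrophage -0.017 among them), 3 without day 7 library 1, 3 without day 3 library 5 and day 7 library 1, and 0 to 2 in each other alternative. With 3 animals at day 7, a difference carried by 1 or 2 of them cannot be told from one between animals.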

Other observations

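The other 18 gene lists with enough tested members had medians between -0.29 and 0.27 on the log2 scale, and several of them separated the day 7 libraries from each other. Of 20 genes of the unfolded protein response, which handles misfolded proteins in the endoplasmic reticulum, day 7 library 1 lay above all day 3 libraries for 17, library 2 for 1 and library 3 for 3. Hspa5, its main chaperone, stood at 485, 1102, 801, 644 and 623 CPM at day 3 and at 2070, 598 and 603 CPM at day 7. Immediate early genes, induced within minutes of a stimulus, lay above all day 3 libraries for 12 of 20 in library 1 and for 0 in libraries 2 and 3, and below all of them for 9 in each of the latter. Junb, a member of the AP-1 family, stood at 24.9 to 174 CPM at day 3 and at 324, 43.4 and 40.1 CPM at day 7.

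Genes that break down branched-chain amino acids, which adipocytes use as a source of acetyl-CoA, also differed between the day 7 libraries: library 1 lay below all day 3 libraries for 16 of 19, library 2 above all of them for 12 and library 3 above all of them for 1. Mccc1, a subunit of methylcrotonyl-CoA carboxylase, stood at 21.0, 19.6, 22.4, 26.2 and 177 CPM at day 3 and at 14.4, 186 and 95.8 CPM at day 7. Day 3 library 5 lay with day 7 library 2. Lysosome genes were high in library 3, above all day 3 libraries for 16 of 25, against 12 in library 1 and 1 in library 2. Ctsd, the protease cathepsin D, stood at 1199 to 1969 CPM at day 3 and at 2550, 1325 and 4209 CPM at day 7. Pericyte and smooth muscle genes lay below all day 3 libraries for 10 of 14 in library 1 and above all of them for 6 in library 2.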
